A study of Mus musculus with 14 samples.

Results

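The layer difference of astrocytes was set against the layer difference of the whole tissue, in the cortex of SW strain mice. The astrocytes came from transgenic Aldh1l1-GFP animals at 14 days of age. The labels give the same strain for the bulk tissue and state no separate age or genotype for it. The bulk libraries were also taken to be from 14 days of age. For each gene the upper minus deep layer difference in sorted astrocytes was compared with the same difference in undissociated cortex, and the gap between them, on the log2 scale, is called the interaction. It draws on 10 of the series' 14 libraries: 3 of upper and 3 of deep layer astrocytes, 2 of upper and 2 of deep layer bulk tissue. The other 4 libraries, from GFP-negative cells (2 a layer), are not part of the interaction. They entered the estimate of the spread between replicates and the choice of genes tested. Of 32830 genes in the deposited table, 22575 reached a normalised read count of 10 in at least 2 of the 14 libraries and were tested.

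In the Aldh1l1-GFP reporter, green fluorescent protein is driven by regulatory sequence of Aldh1l1, a gene of folate metabolism that most cortical astrocytes express. Layers were separated by hand, so a piece of one can carry cells of the other. Astrocytes were freed with papain, stripped of dead cells with DAPI and sorted on GFP, whereas bulk tissue went straight to RNA extraction. A change made by dissociation or sorting that is alike in both layers drops out of the interaction. One that differs between layers cannot be told apart from a difference of the cells. The labels number the libraries but do not say that they came from separate animals. A p-value here therefore reflects no more than the variation among these samples, possibly technical in part. The bulk replicate numbers differed widely in a Y-linked gene, given below, in both layers, so they did not all come from a single animal.

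The neurons of the cortex are born in order and settle into layers that differ in genes and targets: Cux1 and Cux2 mark upper layer cells, and Foxp2, Tle4 and Crym mark deep layer cells that project out of the cortex. Astrocytes fill all layers, and genes such as Chrdl1, a secreted antagonist of bone morphogenetic proteins, are known for uneven levels across them. In bulk tissue a layer difference is a mixture over all cell types. Fewer cells of a type and less RNA per cell cannot be told apart there. The interaction is 0 where astrocytes and tissue differ between layers by the same factor, positive where the upper minus deep difference is larger in astrocytes, and negative where it is smaller.

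The libraries held 18226457 to 30316765 reads in genes. The sorted cells matched their titles: the summed value of 20 astrocyte markers was 1367970 to 2118820 in the 6 astrocyte libraries and 289662 to 328522 in the 4 bulk libraries. The summed value of 15 general neuron markers was 1638 to 2502 in astrocytes and 291680 to 431094 in bulk tissue. Within astrocytes that neuron sum was somewhat higher in the upper layer (1874 to 2502) than in the deep layer (1638 to 1704). Its part in the results was not tested. Deep astrocyte replicate 2 stood apart: its summed value of 13 mitochondrially encoded genes was 4583610, against 1224480 to 1567320 in the other 5 astrocyte libraries. The characteristics field of the upper layer astrocytes and upper layer GFP-negative cells names bulk tissue, against their titles, which were followed.

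The interaction passed the test in 31 of 22575 genes (0.137%; limma, Benjamini-Hochberg adjusted p below 0.05). Positive calls numbered 18 (0.0797% of genes tested) and negative calls 13 (0.0576%). An unadjusted p below 0.05 was reached by 1812 of 22575 genes (8.03%). Most of the 31 genes differed between the layers of the bulk tissue and far less between the layers of the astrocytes. The fitted astrocyte difference was under 50% of the bulk difference in 25 of them, the bulk difference was under 50% of the astrocyte one in 1, Adcy8, and neither held in 5. The median size of the layer difference among the 31 was 0.28 (log2) in astrocytes and 1.30 in bulk tissue. In 24 of the 31 the astrocyte difference was smaller than 0.5. All 31 genes had every one of the 9 differences between single upper and deep astrocyte libraries on one side of all 4 between bulk libraries, as did 3136 of all genes tested (13.9%). Because the test rewards such separation, that count is a description.

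With the replicate number as a block within each fraction, 112 genes passed (0.496% of 22575), with all 31 among them. On the recovered reads, edgeR's quasi-likelihood test called 50 genes (0.221%) and DESeq2 called 200 of 17751 with an adjusted p (1.13%). Both lists hold all 31. The count rests on the bulk libraries, of which each layer has 2. Leaving out deep bulk replicate 1, upper bulk replicate 1 or upper bulk replicate 2 left 0 genes past limma's adjusted threshold, with 1234, 1610 and 1132 genes at an unadjusted p below 0.05. Without deep bulk replicate 2, 8 genes passed. The count was 14 without upper astrocyte replicate 2, 12 without upper astrocyte replicate 3 and 72 without deep astrocyte replicate 2. Of the 31 calls, 12 to 31 were kept in the fits without 1 astrocyte library. The sign of the interaction was the same for all 31 genes in each of these fits. With the 10 astrocyte and bulk libraries alone, 16 of the 31 kept their call. Those lost were Adamts16, Adcy8, Cnksr3, Col5a2, Cux2, Dpy19l1, Efhd2, Gucy1a1, Inf2, Lpar1, Plcb4, Sestd1, Slc36a1, Tmeff1 and Tmem63a. Voom kept 27, without Cnksr3, Col5a2, Otc and Tmem63a, and no filter on low values kept 26, without Dpy19l1, Plcb4, Sestd1, Tmeff1 and Tmem63a.

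**Figure D1:**
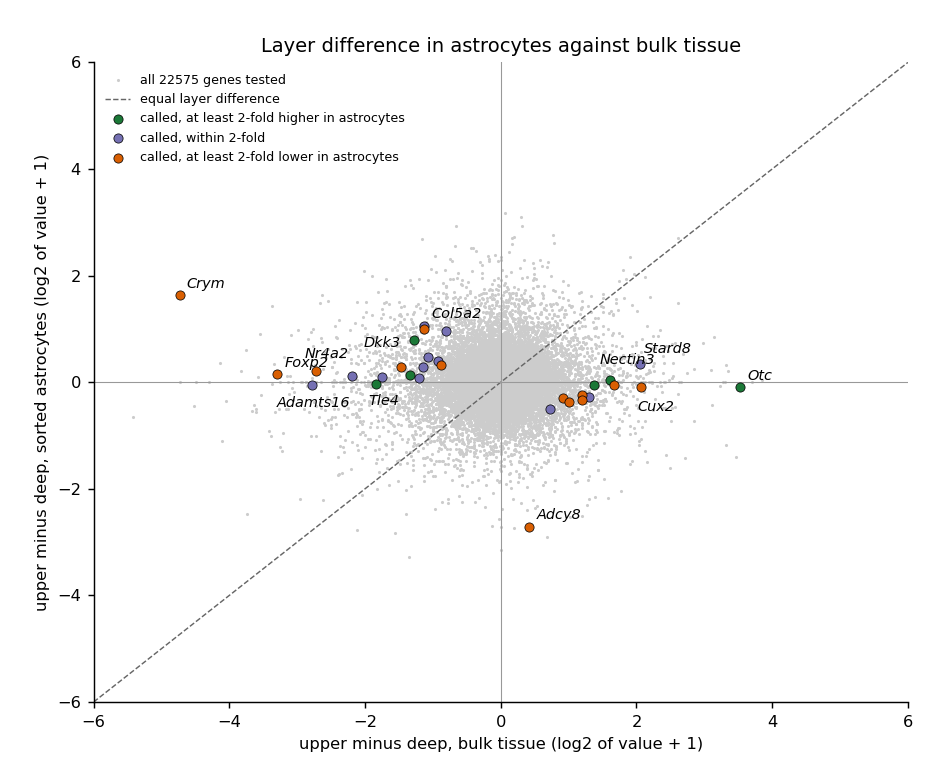
Fitted upper minus deep difference of each of the 22575 genes tested in bulk tissue (x axis) and in sorted astrocytes (y axis), both on the log2 scale of the normalised read count plus 1; coloured points are the 31 called genes by their level in astrocytes against bulk tissue. Most called genes lie near 0 on the astrocyte axis (24 of 31 within 0.5) and far from 0 on the bulk axis. Adcy8 lies farthest from 0 on the astrocyte axis, at -2.71 against 0.42.

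Each gene was classed by its level in astrocytes against bulk tissue over both layers, a quantity apart from the interaction but computed from the same libraries. Of 3986 genes at least 2-fold higher in astrocytes, 6 were called (0.151%): Tle4, Dkk3 and Cnksr3 with positive and Nectin3, Pde7b and Otc with negative interactions. Of 12537 genes within 2-fold, 12 were called (0.0957%). Of 6052 genes at least 2-fold lower in astrocytes, 13 were called (0.215%).

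Nectin3 codes for an adhesion protein of the immunoglobulin superfamily that joins neighbouring cells. The gene (GRCm38 chromosome 16, 46387706 to 46498525) is also on the list of upper layer neuron genes. Its normalised read counts were 4907, 5239 and 5037 in upper and 4525, 5498 and 4749 in deep layer astrocytes. In bulk tissue they were 3672 and 3649 in upper and 1143 and 1248 in deep layers. The astrocyte layers overlapped, while both upper bulk libraries exceeded both deep ones. The layer difference was 0.04 in astrocytes and 1.61 in bulk tissue, and the interaction was -1.57 (SE 0.20, 95% interval -1.99 to -1.15, limma adjusted p = 0.0057).

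Tle4 codes for a Groucho family corepressor of transcription and is used as a marker of deep layer corticothalamic neurons. It lies on chromosome 19, 14448150 to 14598051. Astrocytes held 2782, 2986 and 2716 in upper and 2673, 3111 and 2884 in deep layers. Bulk tissue held 628 and 606 in upper layers and 2452 and 2006 in deep layers. In the astrocytes the layers overlapped, and all 6 libraries exceeded both deep bulk libraries. Upper bulk tissue alone stood low. The interaction was 1.82 (SE 0.21, 95% interval 1.36 to 2.27, adjusted p = 0.0057), from layer differences of -0.03 and -1.84.

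Otc codes for ornithine transcarbamylase, the urea cycle enzyme of mitochondria known mainly from liver. The gene spans chromosome X, 10252305 to 10321024. In astrocytes its values were 382, 270.3 and 235 in upper and 268, 342 and 322 in deep layers. In bulk tissue they were 10.1 and 11.02 in upper layers, from 22 reads in all, and 0 in both deep libraries. The bulk layers therefore did not overlap, while the astrocyte layers did. Set against a floor of 3 reads over the deep bulk group, the upper bulk value was at least 6.81-fold higher, which puts the interaction at -2.84 or below on that scale. The fitted interaction of -3.63 (adjusted p = 0.0057) depends on the pseudocount and is no bound. Over 14 alternatives it lay between -6.51 and -0.70, and Otc was not called with voom or with a pseudocount of 5 or 20.

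The starts of these 3 genes are shown as examples of genes higher in astrocytes than in bulk tissue and level across astrocyte layers, while the tissue was not. The case of Otc rests on few bulk reads. The sequences are RefSeq's (GRCm38.p6), the 250 bases before the start site, 5′ to 3′ on the gene's strand, at chr16:46496968-46497217 (minus strand) for Nectin3, chr19:14598184-14598433 (minus strand) for Tle4 and chrX:10252055-10252304 (plus strand) for Otc. RefSeq's start lies inside the GENCODE bounds given above for Nectin3, upstream of them for Tle4 and at them for Otc. Capitals mark the CCAAT box, the GC box (letters GGGCGG) and the TATA box (letters TATAAA), each on either strand.
Nectin3: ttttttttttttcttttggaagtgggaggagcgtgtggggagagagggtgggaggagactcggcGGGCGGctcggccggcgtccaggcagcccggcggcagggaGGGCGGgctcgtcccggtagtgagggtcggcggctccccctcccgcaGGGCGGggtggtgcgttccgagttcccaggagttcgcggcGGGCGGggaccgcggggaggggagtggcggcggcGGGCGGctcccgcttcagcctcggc
Tle4: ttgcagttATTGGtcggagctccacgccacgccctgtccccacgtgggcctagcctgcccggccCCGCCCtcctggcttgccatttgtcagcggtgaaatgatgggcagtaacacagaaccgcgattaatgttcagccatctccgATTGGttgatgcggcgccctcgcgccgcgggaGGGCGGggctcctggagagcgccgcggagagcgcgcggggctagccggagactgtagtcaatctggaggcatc
Otc: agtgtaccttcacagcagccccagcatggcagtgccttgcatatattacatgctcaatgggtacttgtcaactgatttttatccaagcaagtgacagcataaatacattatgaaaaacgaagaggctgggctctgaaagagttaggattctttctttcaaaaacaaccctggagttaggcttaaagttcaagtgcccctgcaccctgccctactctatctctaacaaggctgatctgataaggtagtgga
Nectin3's window holds 5 GC boxes and 73.2% G or C. Tle4's, the most upstream of 2 listed starts, holds 2 GC boxes and 2 CCAAT boxes at 65.2% G or C. Otc's holds none of the 3 motifs at 43.6% G or C. Among the called genes, 24 of 31 matched the table, with 32 windows. A GC box stood in 21 of these windows (65.6%) and in 32.7% of all 32851 windows. A CCAAT box stood in 7 (21.9%, against 33.9%) and a TATA box in 2 (6.25%, against 12.4%). The median G or C content was 66.2% in the windows of called genes and 52.4% in all windows, which also include genes not expressed here. These matches describe letters only.

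Dkk3 codes for a secreted glycoprotein of the Dickkopf family. Astrocytes held 6893, 7994 and 10038 in upper and 3705, 5808 and 4954 in deep layers. Bulk tissue held 1483 and 1765 in upper and 3949 and 3900.4 in deep layers. The order of the layers was opposite in the 2 fractions, with no overlap in either. The layer difference was 0.79 in astrocytes and -1.28 in bulk tissue, giving an interaction of 2.07 (SE 0.30, 95% interval 1.43 to 2.71, adjusted p = 0.013). Dkk3 lies on chromosome 7, 112116017 to 112159057.

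Pde7b, a phosphodiesterase that breaks down cyclic AMP, was at 1947, 1926 and 2115 in upper and 1946, 2340.4 and 1918 in deep layer astrocytes. Bulk tissue held 1507 and 1675 in upper and 598 and 628 in deep layers. The astrocyte layers overlapped and the bulk layers did not, for an interaction of -1.42 (SE 0.24, adjusted p = 0.0334). Cnksr3, a scaffold protein of the connector enhancer of KSR family, went the other way. It was at 433, 451 and 497 in upper and 456, 413 and 383 in deep layer astrocytes, and at 115 and 87.1 in upper and 270.2 and 242 in deep bulk tissue. Its interaction was 1.49 (SE 0.26, adjusted p = 0.0348).

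**Figure D2:**
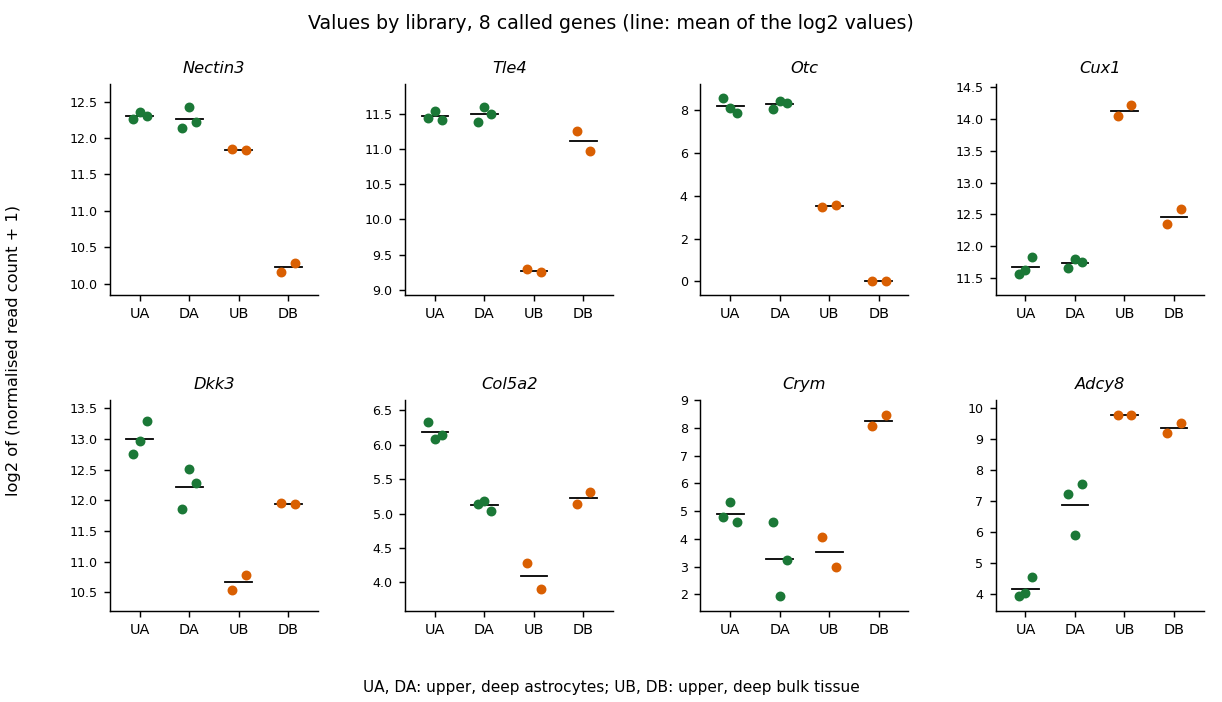
Log2 of the normalised read count plus 1 in every library (points) with the group mean of the log2 values (line) for 8 called genes, in upper (UA) and deep (DA) layer astrocytes and upper (UB) and deep (DB) layer bulk tissue; the y axes differ and do not start at 0. Nectin3, Tle4, Otc and Cux1 are level across astrocyte layers, Dkk3 and Col5a2 run opposite ways in the fractions, and Adcy8 differs mainly in astrocytes. The means of Crym also run opposite ways, but its astrocyte values are low and the layers overlap.

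Layer differences that ran opposite ways, each at least 0.5 on the log2 scale, were found in 6 called genes (0.0266% of genes tested). Crym, Col5a2, Lpar1, Dkk3 and Efhd2 had the higher fitted value in the upper layer of astrocytes and in the deep layer of the tissue. Plcb4 was the other way round. With the replicate block, 28 of the 112 called genes reversed in this sense.

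Col5a2, a chain of the fibrillar collagen V, was at 79.2, 66.5 and 69.4 in upper and 34.2, 35.5 and 31.7 in deep layer astrocytes. In bulk tissue it was at 18.4 and 14.0 in upper and 34.1 and 38.8 in deep layers. The layers did not overlap in either fraction, and their order was opposite. The interaction was 2.19 (SE 0.37, 95% interval 1.40 to 2.98, adjusted p = 0.0334). Col5a2 was not called with voom or with the 10 astrocyte and bulk libraries alone. GFP-negative cells held far more of it, at 583 and 857 in upper and 590 and 641 in deep layers. The part of such cells in the astrocyte values was not tested.

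Lpar1, a receptor for lysophosphatidic acid that myelinating cells express strongly, was at 100.3, 122 and 176 in upper and 63.7, 53.9 and 77.2 in deep layer astrocytes. Bulk values were 340.1 and 381 in upper and 876 and 712 in deep layers, opposite in order and without overlap. Its interaction was 2.13 (SE 0.35, adjusted p = 0.029). The summed value of 15 myelin genes, at 42806 to 46407 in upper and 141475 to 167088 in deep bulk tissue, moved with it in the tissue. In astrocytes that sum was 4713 to 5917 in upper and 6570 to 7703 in deep layers, opposite in order to Lpar1. The part of myelinating cells was not tested.

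Efhd2, a calcium-binding protein with EF hands, was at 1414, 2059 and 2256 in upper and 843, 913 and 1163 in deep layer astrocytes. Bulk tissue held 1561 and 1567 in upper and 2737 and 2735 in deep layers, and the interaction was 1.76 (SE 0.31, adjusted p = 0.0348). Its layers did not overlap in either fraction. Plcb4, a phospholipase C that acts below G protein-coupled receptors, stood at 1404, 1324 and 1330.1 in upper and 1925, 1752 and 2112 in deep layer astrocytes. Its bulk values were 2921 and 3645 in upper and 2118 and 1837 in deep layers. Here the astrocytes were higher in the deep layer and the tissue in the upper layer, with no overlap. The interaction was -1.23 (SE 0.22, adjusted p = 0.0444), and the call was kept in 1 of the 10 fits that leave out a library.

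Crym, a thyroid hormone-binding protein and deep layer neuron marker (chromosome 7, 120186380 to 120202111), had the largest fitted interaction of all genes tested. Its values were 26.7, 39.2 and 23.1 in upper and 23.6, 2.84 and 8.46 in deep layer astrocytes, against 15.7 and 7.01 in upper and 264 and 355 in deep bulk tissue. Bulk tissue differed by a wide gap, while the astrocyte values were low in both layers and overlapped, from 2.84 to 39.2. The interaction was 6.37 (SE 1.03, 95% interval 4.18 to 8.57, adjusted p = 0.0254). With the low astrocyte counts its size depends on the pseudocount, between 4.09 and 6.52 over the 14 alternatives.

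**Figure D3:**
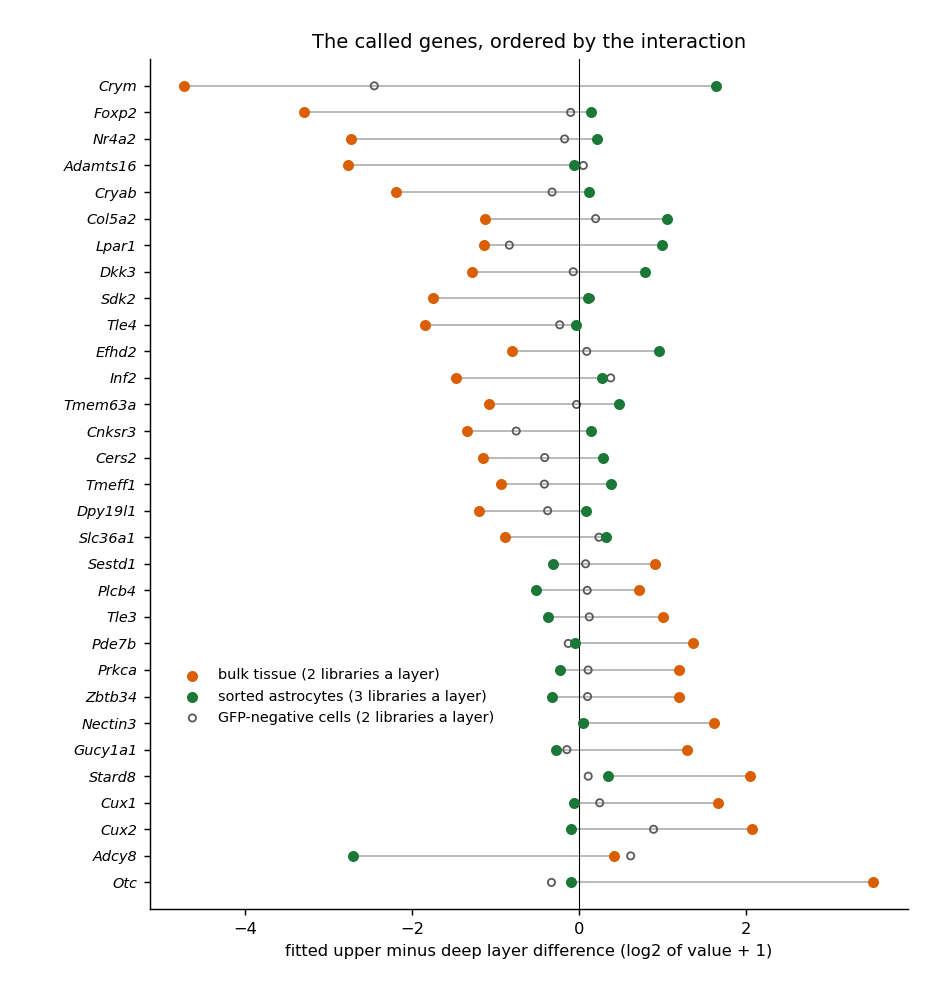
Fitted upper minus deep layer difference (x axis, log2 of the normalised read count plus 1) of the 31 called genes in bulk tissue (orange), sorted astrocytes (green) and, as open circles that the interaction does not use, GFP-negative cells; the grey bar is the interaction. The green points sit near 0 for most genes, from -2.71 (Adcy8) to 1.64 (Crym), and the orange points span -4.73 to 3.53.

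Among the called genes at least 2-fold lower in astrocytes, the neuronal layer markers Crym, Foxp2 and Nr4a2 had the largest positive interactions. Adcy8 had the largest negative one among them. Foxp2, a forkhead factor of deep layer neurons (chromosome 6, 14901349 to 15441977), was at 57.3, 63.2 and 80.4 in upper and 74.4, 38.3 and 75.1 in deep layer astrocytes. In bulk tissue it was at 48.8 and 67.1 in upper and 727 and 449.9 in deep layers. Its interaction was 3.44 (SE 0.49, 95% interval 2.40 to 4.49, adjusted p = 0.0107). Nr4a2, an orphan nuclear receptor of the deepest cortical neurons (chromosome 2, 57106830 to 57124003), was at 133, 173 and 142 in upper and 100.3, 155 and 135 in deep layer astrocytes. Bulk values were 189 and 240.4 in upper and 1256 and 1598 in deep layers, with an interaction of 2.94 (SE 0.39, adjusted p = 0.0084). For both genes the astrocyte layers overlapped.

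Cux1 and Cux2 code for homeodomain factors of upper layer neurons. Cux1 was at 3028, 3154 and 3644 in upper and 3214, 3564 and 3449 in deep layer astrocytes, and at 16939 and 19052 in upper and 5194 and 6119.5 in deep bulk tissue. The interaction of Cux1 was -1.73 (SE 0.22, 95% interval -2.19 to -1.27, adjusted p = 0.0057). Cux2 was at 81.2, 59.9 and 63.9 in upper and 96.8, 55.3 and 70.8 in deep layer astrocytes, and at 7595 and 7365 in upper and 1451 and 2174 in deep bulk tissue. Its interaction was -2.17 (SE 0.34, 95% interval -2.90 to -1.44, adjusted p = 0.0233). Both factors were level across astrocyte layers, Cux1 above 3000 and Cux2 below 100 in all 6 libraries.

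Adcy8, an adenylyl cyclase stimulated by calcium (chromosome 15, 64697084 to 64922296), was the one called gene whose layer difference lay mainly in the astrocytes. Its values were 14.3, 15.3 and 22.04 in upper and 146, 58.2 and 184 in deep layer astrocytes. Bulk tissue held 858 and 860.4 in upper and 573 and 719 in deep layers. All 3 deep astrocyte libraries exceeded all 3 upper ones, while the upper bulk libraries exceeded the deep ones. The layer difference was -2.71 in astrocytes and 0.42 in bulk tissue, and the interaction was -3.13 (SE 0.55, 95% interval -4.30 to -1.96, adjusted p = 0.0348). In the astrocytes the general neuron sum was higher in the upper layer, while the interneuron sum (595 to 742 in upper, 732 to 1014 in deep layers) and the myelin sum were higher in the deep layer. Their part was not tested. The call was kept in 1 of the 10 fits that leave out a library, and was absent without GFP-negative upper layer replicate 1.

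Besides Lpar1, described above, the class held 6 more called genes: Inf2, Slc36a1, Sestd1, Tle3, Prkca and Zbtb34. Inf2, a formin that remodels actin, had an interaction of 1.75 (SE 0.28, adjusted p = 0.0254). That of Slc36a1, a proton-coupled amino acid transporter, was 1.21 (SE 0.21, adjusted p = 0.0348). Negative values were found for Zbtb34 (-1.53), a zinc finger protein, and Prkca (-1.43), the alpha form of protein kinase C. They were also found for Tle3 (-1.38), a corepressor related to Tle4, and Sestd1 (-1.22), with adjusted p from 0.0227 to 0.0348 over these 4. Tle3 and Tle4, of 1 family, departed from the tissue in opposite directions: Tle3 was higher in upper layer tissue (1.01) and Tle4 in deep layer tissue (-1.84).

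Among the called genes within 2-fold of bulk tissue, Adamts16, Cryab, Col5a2 and Sdk2 had the largest positive interactions and Stard8 the largest negative one. Adamts16, a secreted metalloprotease, was at 122, 92.6 and 106 in upper and 77.9, 123 and 141 in deep layer astrocytes, and at 31.3 and 21.03 in upper and 223 and 148 in deep bulk tissue. Its interaction was 2.72 (SE 0.40, adjusted p = 0.0137). Cryab, the small heat shock protein alpha B-crystallin, was at 786, 1026 and 1087 in upper and 877, 982 and 785 in deep layer astrocytes. Bulk tissue held 649.7 and 533 in upper and 2861 and 2530.4 in deep layers, for an interaction of 2.32 (SE 0.33, adjusted p = 0.0107). In both genes the astrocyte layers overlapped and deep bulk tissue alone stood high.

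Sdk2, a sidekick adhesion protein, was at 659.8, 796 and 711 in upper and 613, 667 and 736 in deep layer astrocytes, against 480.1 and 456 in upper and 1645 and 1497 in deep bulk tissue. The interaction of Sdk2 was 1.85 (SE 0.25, adjusted p = 0.00944). Stard8, a GTPase-activating protein with a lipid-binding START domain, was at 1717, 1977 and 2016 in upper and 1454, 1488 and 1532 in deep layer astrocytes. Its bulk values were 1734 and 2131 in upper and 511 and 420.3 in deep layers. Both fractions had more Stard8 in the upper layer, by 0.35 in astrocytes and 2.05 in tissue, so the interaction of -1.70 (SE 0.23, adjusted p = 0.00965) is one of size and not of direction. Gucy1a1, a subunit of the guanylyl cyclase that senses nitric oxide, had an interaction of -1.57 (SE 0.27, adjusted p = 0.0334). Cers2, a ceramide synthase for very long acyl chains, had 1.45 (SE 0.23, adjusted p = 0.0254), Tmem63a, a membrane channel protein, 1.55, Tmeff1 1.32 and Dpy19l1 1.29. Exons of Cryab, Tmem63a, Cers2, Prkca, Gucy1a1 and Cux1 overlap those of another annotated gene (Hspb2, 2210411M09Rik, 6330562C20Rik and Setdb1, Apoh, Mir7010 and Gm16599). Because no source used here states strand-specific counting, these 6 are uncertain. The same holds for Lef1, Eogt, Axin2, Aldh1l1, Slc1a2, Fdps and Plxna4, whose exons also overlap those of another gene.

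The lists of neuronal layer genes describe the tissue side of this pattern. All 16 upper layer neuron genes had interactions below 0, with a median of -1.60, and 3 of them, Cux1, Cux2 and Nectin3, were called. With the replicate block 6 were called, with edgeR 4 and with DESeq2 10. An unadjusted p below 0.05 was reached by 11, all negative, against 3.22% of all genes. The median layer difference of the list was -0.05 in astrocytes and 1.37 in bulk tissue. Of 20 deep layer neuron genes, 18 had interactions above 0, the median was 1.58 and 4, Crym, Foxp2, Nr4a2 and Tle4, were called, as were 4 with the block and with edgeR and 7 with DESeq2. Unadjusted p below 0.05 was reached by 13, all positive, against 4.81% of all genes. Their median layer difference was -0.36 in astrocytes and -1.73 in bulk tissue. The median interaction over all 22575 genes was 0.02, with 11655 above and 10911 below 0. These lists hold genes chosen for their layers in neurons, so their tissue direction is not a finding.

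Some upper layer neuron genes were abundant in astrocytes. The list's summed value was 34437 to 42422 in upper and 32537 to 53140 in deep layer astrocytes, with overlap. In bulk tissue it was 71546 to 78720 in upper and 24802 to 30265 in deep layers, with none. Rorb, a nuclear receptor that marks layer 4 neurons, was at 12873, 16402 and 15535 in upper and 12339, 25095 and 14352 in deep layer astrocytes. It was at 11982 and 14108 in upper and 4264 and 5015 in deep bulk tissue. The interaction of -1.64 (SE 0.39) did not pass in limma (adjusted p = 0.17) and passed with the replicate block within a fraction (adjusted p = 0.0492) and in DESeq2 (adjusted p = 0.00881). It did not pass in edgeR (adjusted p = 0.115) or with the block over all fractions (adjusted p = 0.149). Pou3f2, a POU factor of upper layer neurons and neural progenitors, was at 1867, 2043 and 1664 in upper and 1848, 2306 and 2042 in deep layer astrocytes. Bulk tissue held 1278 and 1200.0 in upper and 609 and 572 in deep layers. Its interaction of -1.22 (SE 0.25) had an adjusted p of 0.0789 in limma, 0.0521 with the block and 0.0442 in edgeR.

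The other 16 deep layer genes, none called by limma, varied in size and sign, down to -1.50. Fezf2, a zinc finger factor that specifies neurons projecting below the cortex, had an interaction of 3.00 (SE 0.71, adjusted p = 0.16). For Bcl11b, which acts in the same neurons, it was 2.28 (SE 0.58, adjusted p = 0.208). Fezf2 and Bcl11b were among the 7 calls of DESeq2. Tbr1, a T-box factor of layer 6 neurons, had -0.18 (SE 0.34, adjusted p = 0.912).

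**Figure D4:**
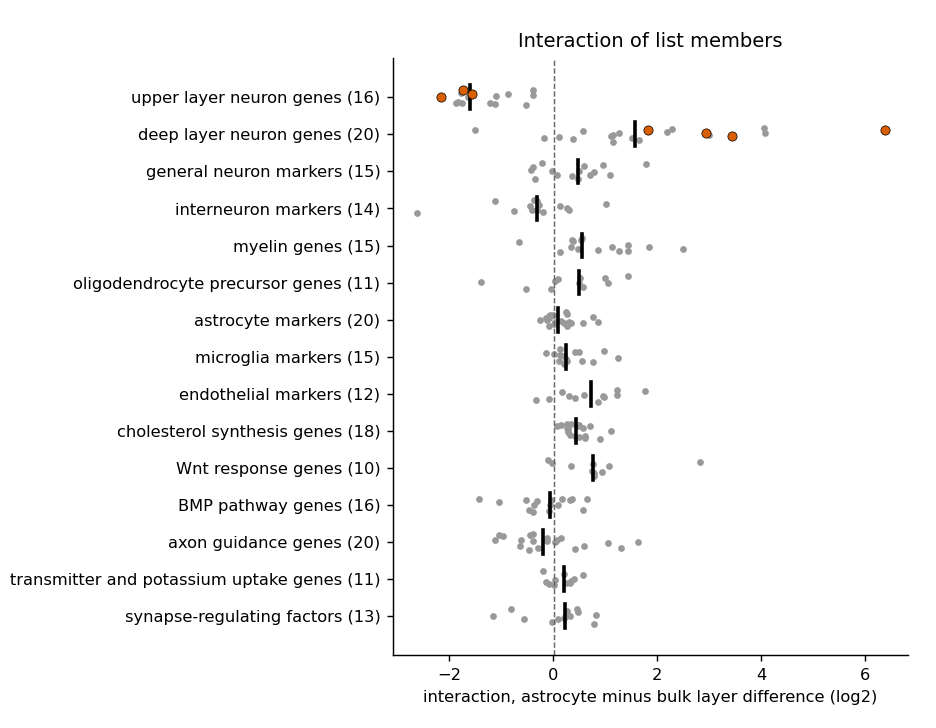
Interaction (x axis, log2; astrocyte minus bulk layer difference) of each tested member of 15 gene lists, with the number of members in parentheses; black bars are list medians, orange points are called genes and points are spread vertically for legibility only. The upper layer neuron genes lie wholly below 0 with a median of -1.60, the deep layer ones mostly above 0 with a median of 1.58, and the astrocyte markers lie around 0.10.

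Of 6 genes proposed as layer genes of astrocytes, 0 had a called interaction in limma, 0 in edgeR and with the replicate block, and 1, Lef1, in DESeq2. In limma 3 reached an unadjusted p below 0.05, against 8.03% of all genes. Chrdl1 was at 8742, 9371 and 11319.6 in upper and 2613, 5078 and 2889.8 in deep layer astrocytes. In bulk tissue it was at 1225 and 948 in upper and 469.9 and 465 in deep layers. The layers did not overlap in either fraction, and their order was the same. The layer difference was 1.53 in astrocytes and 1.20 in bulk tissue, with an interaction of 0.33 (SE 0.34, 95% interval -0.40 to 1.05, adjusted p = 0.834). That interval does not show that the 2 differences are equal.

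Il33, a cytokine stored in the nucleus, was at 1033, 967 and 1295 in upper and 1547, 2468 and 1681 in deep layer astrocytes. Bulk values were 220.3 and 343 in upper and 425 and 443 in deep layers. Deep layers were higher without overlap in both fractions. The interaction was -0.11 (SE 0.38, 95% interval -0.92 to 0.70, adjusted p = 0.956). Its sign was positive in 3 fits, at 0.04 with library weights, 0.09 without deep astrocyte replicate 2 and 0.21 without upper bulk replicate 2.

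Lef1, Eogt and Id1 were the 3 with an unadjusted p below 0.05. Lef1, a transcription factor of the Wnt pathway, was at 2002, 2282 and 1789 in upper and 912, 809.9 and 723 in deep layer astrocytes, and at 535 and 528 in upper and 488 and 411 in deep bulk tissue. Its interaction was 1.06 (SE 0.25, 95% interval 0.53 to 1.60, unadjusted p = 0.000709, adjusted p = 0.156), with an adjusted p of 0.0168 in DESeq2 and 0.0586 with the block. Eogt, which adds N-acetylglucosamine to extracellular EGF repeats, was at 29167, 30701 and 28954 in upper and 12725, 15614 and 8927 in deep layer astrocytes, and at 2494 and 2426 in upper and 1935 and 1891 in deep bulk tissue. Its interaction was 0.93 (SE 0.27, unadjusted p = 0.00419, adjusted p = 0.308). Id1, an inhibitor of helix-loop-helix factors induced by bone morphogenetic proteins, was at 59.2, 56.7 and 68.3 in upper and 230.1, 179 and 174 in deep layer astrocytes, against 129 and 115 in upper and 195 and 176 in deep bulk tissue. Its interaction was -1.04 (SE 0.30, unadjusted p = 0.0039, adjusted p = 0.295), and that of Id3 was -0.47 (SE 0.24, adjusted p = 0.658). In all 6 candidates astrocytes and tissue differed in the same direction, and none of the 6 passed limma's adjusted threshold. They were proposed as layer genes from earlier results of these data, so the direction is no independent support.

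**Figure D5:**
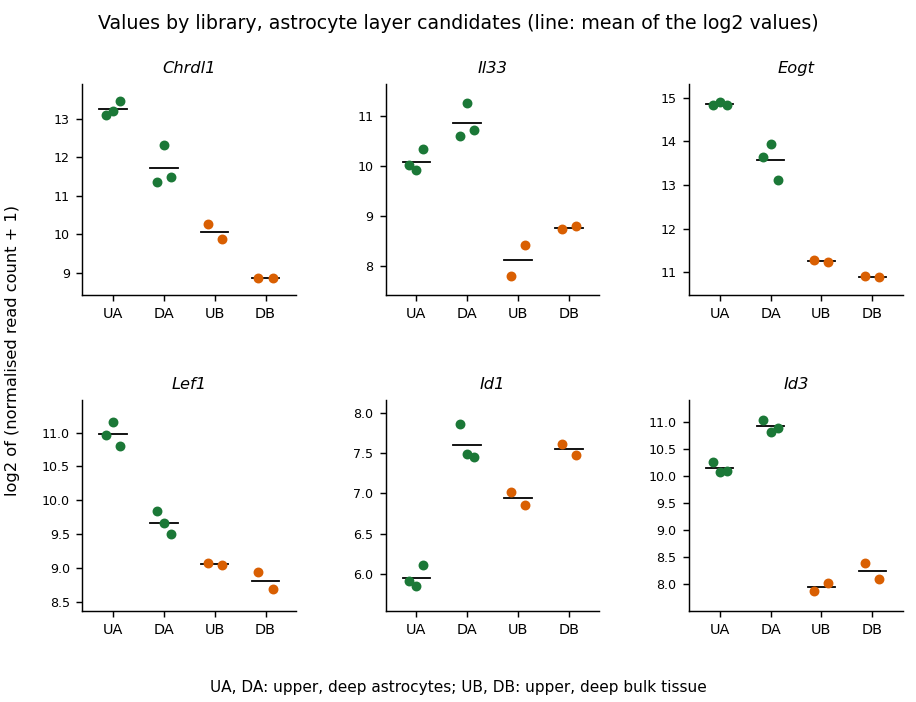
Log2 of the normalised read count plus 1 in every library (points) with the group mean (line) for the 6 astrocyte layer candidates, in upper (UA) and deep (DA) layer astrocytes and upper (UB) and deep (DB) bulk tissue; y axes differ and do not start at 0. Both fractions step the same way between layers in all 6 genes, with a larger step in astrocytes for Lef1, Eogt and Id1.

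Other groups held no gene called by limma, and their members are described by counts. The astrocyte markers, cholesterol synthesis, endothelial and microglia genes, and those of the bone morphogenetic protein, Hedgehog and Notch pathways, also had 0 calls in edgeR, in DESeq2 and with the replicate block. The Wnt response genes had 1 call with the block (Apcdd1) and 1 in DESeq2 (Lef1). The myelin genes had 3 with the block (Cnp, Mal and Myrf) and 2 in DESeq2 (Cnp and Mal). Of 20 astrocyte markers, 13 had interactions above 0, with a median of 0.10. The glutamate transporter Slc1a2 was at -0.09 (SE 0.33), the filament protein Gfap at -0.12 (SE 0.60) and Aldh1l1 at 0.85 (SE 0.29, unadjusted p = 0.011), the only marker under an unadjusted 0.05. Of 10 Wnt response genes, 8 were above 0, with a median of 0.77. An unadjusted p below 0.05 was reached by 5 of them, all positive, against 4.81% of all genes. Among the 10 is Lef1, also one of the layer candidates above. The list's median layer difference was 0.63 in astrocytes and -0.12 in bulk tissue. Its members Axin2 and Apcdd1, negative feedback genes of the pathway, had 0.78 (SE 0.32) and 0.94 (SE 0.33), neither past limma's adjusted threshold. Apcdd1 passed with the replicate block within a fraction (adjusted p = 0.0425) and not with the block over all fractions (adjusted p = 0.246) or in edgeR (adjusted p = 0.401).

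All 18 cholesterol synthesis genes had interactions above 0, with a median of 0.44, as did 11655 of all 22575 genes tested. An unadjusted p below 0.05 was reached by 3 of the 18, all positive, against 4.81% of all genes. The list's median layer difference was 0.16 in astrocytes and -0.31 in bulk tissue. Fdps, which makes farnesyl diphosphate, was at 0.91 (SE 0.32, adjusted p = 0.43). The myelin genes, whose cells also make cholesterol, stood higher in deep bulk tissue (sums given above). Their part in these values was not tested.

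Of 15 myelin genes, 14 had interactions above 0, with a median of 0.55 and 4 at an unadjusted p below 0.05, all positive (4.81% of all genes). Their median layer difference was -1.07 in astrocytes and -1.79 in bulk tissue, so both fractions held more in the deep layer. Cnp, an enzyme of myelin, had 1.44 (SE 0.27, limma adjusted p = 0.0576), and Mbp, the myelin basic protein, 0.54 (SE 0.30, adjusted p = 0.688). Cnp passed with the replicate block (adjusted p = 0.0108) and in edgeR (adjusted p = 0.0401), but its exons overlap those of Dnajc7, so it is uncertain. Of 12 endothelial markers, 10 were above 0, with a median of 0.72, and of 15 microglia markers 14, with a median of 0.24. Of all 22575 genes, 11655 were above 0. An unadjusted p below 0.05 was reached by 5 of the endothelial markers, all positive, against 4.81% of all genes. Among the microglia markers 0 reached it. Both kinds of marker were scarce in astrocytes: the endothelial sum was 770 to 1361 there and 5172 to 6443 in the tissue, and the microglial sum 1942 to 4729 and 11089 to 12549.

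Medians nearer 0 were found for the 16 genes of the bone morphogenetic protein pathway (-0.07), 8 Hedgehog genes (0.00) and 11 Notch genes (0.04). The 20 axon guidance genes had a median of -0.21, with 3 positive and 3 negative at an unadjusted p below 0.05 (4.81% and 3.22% of all genes). The block gave 2 calls, the semaphorin receptor Plxna4 and the semaphorin Sema6a. Transmitter and potassium uptake genes (11) had 0.20 and synapse-regulating factors (13) 0.22. The 15 general neuron markers had 0.47, but 0.02 with edgeR and 0.05 with DESeq2.

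Across genes, the layer differences in astrocytes and in bulk tissue were hardly related. Over the 13734 genes with a mean of at least 100, Pearson's r was 0.0407, given as a description across genes that share libraries. It was 0.0805 over the 2423 of these at least 2-fold higher in astrocytes, -0.0525 over 7904 similar and 0.0848 over 3407 lower. Of these, 58 genes of the higher class had a bulk layer difference of at least 2-fold, of which 44 differed by less than 0.5 (log2) between astrocyte layers, 10 moved the same way by at least that much and 4 the other way. The same split was 64, 12 and 4 of 80 genes of the similar class and 130, 58 and 32 of 220 of the lower class. In each class more of these genes moved the same way than the other way. The genes were picked by their bulk values, so the gap follows in part from that choice, and the split carries no test.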

How the data were processed

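RNA-seq was done on 14 libraries from mouse cortex. Per the labels' protocols, cDNA was made with a NuGEN single primer isothermal amplification kit, and 5 libraries were pooled per lane over 3 lanes; no source used here gives the lane of each. Per the submitters' processing notes, TopHat2 2.0.11, HTSeq 0.6.1p1, CASAVA and DESeq2 were used with GRCm38. The deposited values are a signal, gene counts that the authors divided by 1 size factor per library. Whole reads were recovered for 100% of values (tolerance 1e-06), with 1 read worth 0.768 to 1.42. Coordinates are from GENCODE M21, which matched 32007 of 32830 genes.

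Genes with a value of at least 10 in at least 2 libraries were tested on log2(value + 1) with limma 3.58.1 (intensity trend, robust) in R 4.3.3, over all 14 libraries as 6 group means with 8 residual degrees of freedom, two-sided, with Benjamini-Hochberg adjustment at 0.05. A fold change on this scale understates that of low genes. Alternatives included edgeR 4.0.16 and DESeq2 1.42.0 on the recovered reads. The scripts were tested on simulated counts, with 200 genes changed in upper layer astrocytes. Limma called 10 of 100 genes changed 2-fold and 77 of 100 changed 4-fold, with 3 false calls among 90. DESeq2 called 30 and 86 of them, with 28 false calls among 144. A gene or list without a call is therefore not shown to have equal layer differences. Intervals are at 95%, and the floor for groups at 0 is 3 reads over the group.

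Named are called genes that are no predicted genes, reach a mean of 50 in at least 1 group compared and have no overlap between the layer differences of the fractions. They were taken by size of interaction within each level class, among reversing genes and in each list, with Chrdl1 and Il33 always named. Other list members were named for their known role, and some are not reported here. The members and lists were chosen with earlier results of these data known.

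Replicate numbers were checked for pairing on 13730 genes with a mean over 100. Same-numbered upper and deep astrocyte libraries deviated together in all 3 pairs (r = 0.223 to 0.342, other numbers -0.217 to -0.0605), as did the bulk pairs (0.243). With 2 libraries a layer, both bulk pairs give 1 and the same correlation. The summed value of 5 sex-linked genes was 42202 in upper and 142021 in deep astrocyte replicate 2. In replicates 1 and 3 it was 61692 and 59404 in upper and 71334 and 61764 in deep layer astrocytes. The Y-linked Eif2s3y was low in replicate 1 of both bulk layers (6.45 and 658 in upper and 12.9 and 615 in deep layers, replicates 1 and 2). Replicate number and sex therefore cannot be told apart in bulk tissue. Between astrocytes and bulk tissue r was -0.0184 to 0.0681. The numbers were therefore treated as pairs within a fraction, in an alternative with 4 residual degrees of freedom.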

Additional observations from a re-analysis of the deposited data

Results flagged for a closer look

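The layer effect differed between astrocytes and bulk tissue, by limma's test of the interaction itself, for the 31 genes below, each given with its interaction on the log2 scale. Among deep layer neuron genes these were Crym (6.37), Foxp2 (3.44), Nr4a2 (2.94) and Tle4 (1.82). Among upper layer neuron genes they were Nectin3 (-1.57), Cux1 (-1.73) and Cux2 (-2.17). Genes of the cell surface and matrix were Adamts16 (2.72), Col5a2 (2.19), Lpar1 (2.13), Dkk3 (2.07), Sdk2 (1.85) and Tmeff1 (1.32). Signalling genes were Adcy8 (-3.13), Gucy1a1 (-1.57), Pde7b (-1.42), Plcb4 (-1.23), Prkca (-1.43), Stard8 (-1.70), Cnksr3 (1.49) and Efhd2 (1.76). The remaining genes were Otc (-3.63, with 0 reads in both deep bulk libraries), Cryab (2.32), Inf2 (1.75), Cers2 (1.45), Tmem63a (1.55), Dpy19l1 (1.29), Slc36a1 (1.21), Sestd1 (-1.22), Tle3 (-1.38) and Zbtb34 (-1.53). In the GFP-negative cells, which the interaction does not use, the median size of the layer difference over these 31 genes was 0.17, against 0.28 in astrocytes and 1.30 in bulk tissue. Nectin3, for example, differed by 0.07 there and by 1.61 in the tissue, Cux1 by 0.25 and 1.67, and Crym by -2.45 and -4.73. Crym was near the floor in GFP-negative cells (3.07 and 0 in upper, 13.8 and 7.27 in deep layers), so its -2.45 depends on the pseudocount. The 31 genes were chosen with the bulk values and without the GFP-negative ones. The gap between these 2 fractions therefore follows in part from that choice. Neuron markers were low in the GFP-negative cells: the summed value of 15 general neuron markers was 8001 to 17363 there, against 291680 to 431094 in bulk tissue. They were also dissociated and sorted as the astrocytes were. The part of either in these values was not tested.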

How the results depend on the processing

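All 31 called genes kept the sign of their interaction in 14 alternatives and in 10 fits that each leave out 1 library. Counts moved as follows, as all, positive, negative and reversing calls, from 31, 18, 13 and 6. They were 50, 28, 22 and 13 with edgeR, 200, 105, 95 and 54 with DESeq2, and 74, 54, 20 and 15 with a pseudocount of 5. A pseudocount of 20 gave 180, 118, 62 and 20, and library weights gave 276, 163, 113 and 85. With the replicate block within a fraction they were 112, 60, 52 and 28, with the block over all fractions 52, 31, 21 and 15, and neither block ended any of the 31 calls. With the 10 astrocyte and bulk libraries alone, 22 genes were called, 3 reversed and 16 of the 31 were kept. The positive share was 73.0% with a pseudocount of 5, against 58.1%. Leaving out 1 library gave 0 to 72 calls, 0 to 46 positive, 0 to 26 negative and 0 to 24 reversing. A bulk layer left with 1 library is assumed to vary like the other groups. Counts stayed within 1.5 times under TMM, voom (27 of the 31 kept), a pseudocount of 0.5, no filter (26 kept), a minimum of 50, and without GFP-negative upper layer replicate 1 (38 calls), an alternative chosen after seeing the data because 30333 genes were above 0 there against 23671 to 26356 elsewhere. The interaction of Il33, not called, was 0.043 with library weights and -0.43 to 0.21 over the fits without 1 library. Of 624 list medians over these settings, 11 moved by more than the spread between replicates. The causes were not tested. With 2 bulk libraries a layer, precision is limited by their number.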

Other observations

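A set of 13 genes passed in edgeR, in DESeq2 and with the replicate block but not in limma without it, and were picked here after their values were seen. Rfx3, a factor of ciliary genes, was at 3306, 4386 and 3869 in upper and 4233, 5462 and 3939.7 in deep layer astrocytes. In bulk tissue it was at 2884 and 2818 in upper and 1352 and 1276 in deep layers. Like Nectin3 and Rorb it was high in astrocytes of both layers and uneven in the tissue, with an interaction of -1.35 (SE 0.16 with the block, adjusted p = 0.0143; without it, limma adjusted p = 0.0615).

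Cntnap2, a neurexin-related adhesion protein of axons, was at 180.5, 123 and 360.4 in upper and 41.3, 22.7 and 27.5 in deep layer astrocytes. Its bulk values were 2227 and 2197 in upper and 1974 and 1873 in deep layers. The layer difference of 2.72 lay in the astrocytes, against 0.20 in the tissue (adjusted p = 0.0411 with the block, 0.0878 without). General neuron markers were also somewhat higher in upper layer astrocytes, and their part was not tested. Mycn, a growth-promoting transcription factor, was at 1.91, 0 and 0 in upper and 14.2, 8.51 and 7.40 in deep layer astrocytes, and at 352 and 464 in upper and 261 and 242 in deep bulk tissue. Its interaction of -3.58 (adjusted p = 0.0162 with the block) rests on few astrocyte reads.

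Cavin1, a coat protein of caveolae, was at 122, 142 and 136 in upper and 57.8, 61.0 and 70.8 in deep layer astrocytes. In bulk tissue it was at 193 and 195 in upper and 248 and 305 in deep layers, the opposite order, again without overlap. The interaction was 1.57 (SE 0.22, adjusted p = 0.0215 with the block, 0.0576 without). GFP-negative cells held far more Cavin1, at 1685 and 2366 in upper and 1668 and 2200 in deep layers. Their part in the astrocyte values was not tested. Gamt, the last enzyme of creatine synthesis, was at 219, 271 and 338 in upper and 173, 211 and 206 in deep layer astrocytes, and at 154 and 154 in upper and 307 and 382 in deep bulk tissue, with an interaction of 1.61 (adjusted p = 0.0346 with the block). The other genes of this set were Cnp, Rassf5, Tpbg, March4, Slc5a5, Homer2, Thsd7b and Mn1, with interactions from -1.84 (March4 and Mn1) to 3.01 (Slc5a5). Exons of Cnp, Rassf5, Tpbg and Homer2 overlap those of another gene, so these are uncertain.

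Tnc, the matrix protein tenascin C, passed with the block within a fraction and in DESeq2 but not in limma without it, and its exons overlap those of 8030451A03Rik. Its values in replicates 1, 2 and 3 were 1039, 754 and 1720.2 in upper and 1253, 669 and 2651 in deep layer astrocytes, so libraries of 1 number resembled each other more than those of 1 layer. Bulk tissue held 162 and 218 in upper and 44.6 and 59.1 in deep layers. The interaction of -2.09 had an adjusted p of 0.0143 with the block within a fraction, 0.351 without it, 0.09 with the block over all fractions, 0.281 in edgeR and 0.0499 in DESeq2.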
